A study of Mus musculus with 2 samples.

Results

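The EGF receptor family was followed here through 10 genes: the receptors Egfr, Erbb2 and Erbb3, the ligands Egf, Tgfa, Areg, Ereg and Btc, and the inhibitors Lrig1 and Errfi1. A member was taken from the rows of the deposited value table whose platform annotation gives its symbol alone, with the brightest row standing for the gene. This rule found 9 of the 10 among 18232 named protein-coding genes; Areg, which encodes amphiregulin, was not analysed here. The study compared intestinal stem cells with and without circPan3, a circular RNA that carries the name of the gene Pan3. One sample came from circPan3+/+ mice and the other from circPan3-/- mice, both with the Lgr5GFP-CreERT2 allele, in which green fluorescent protein and a tamoxifen-activated Cre recombinase are made in cells where Lgr5, a receptor gene of crypt stem cells, is active. The mice were 8 weeks old, and the GFP-positive cells were sorted from the crypts of the small intestine. How the circle was deleted, whether tamoxifen was given, and how many mice went into a sample are not stated in the labels.

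Ligands of this family bind EGFR on the outside of the cell. The receptors then pair, and their kinase domains signal through RAS and MAP kinase and through PI3 kinase and AKT. ERBB2 binds no known ligand and ERBB3 has little kinase activity of its own, so both signal mainly as partners. In the intestinal crypt, EGF is supplied by Paneth cells and by cells under the epithelium, it is a standard component of the medium for intestinal organoids, and LRIG1 restrains receptor signalling in the stem cell zone.

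There was 1 array per genotype. Values below therefore stand without errors or p-values, and a difference is one between 2 arrays, which cannot be taken as one between genotypes. Differences are on the log2 scale of the RMA signal, with circPan3+/+ subtracted from circPan3-/-, so that 1 is a 2-fold difference. Named genes whose mean over both arrays reached the median row of the table (13737 genes) had a median difference of 0.36, which was 0.19 in their dimmest eighth and 0.55 in their brightest eighth. As deposited, 9.73% of them were higher on the circPan3-/- array by 2-fold or more, and 2.82% were lower by that much. After centring on that median these shares were 3.89% and 5.03%, after loess on level 3.37% and 5.08%, and after quantile normalization 4.32% and 4.54%. The 95th percentile of negative control rows, called the control limit below, was 5.06 for circPan3+/+ and 5.56 for circPan3-/-. Exact repeats of a value were common in the circPan3+/+ column, at 69.1% of rows, and rare in the circPan3-/- column, at 4.20%. It is therefore not known whether both arrays were processed alike, and each difference below includes any effect of that. Of 10 markers of crypt base stem cells, 5 were below the limit of each array, among them Ascl2 and Smoc2. Of the 10, 5 were higher and 2 lower by 2-fold or more. With values under a limit set to that limit, 1 was higher and 2 were lower. Lgr5, Olfm4, a secreted stem cell marker, and the ion cotransporter gene Slc12a2 were above both limits; Lgr5 had 10.91 in circPan3+/+ and 7.02 in circPan3-/- cells, Olfm4 11.53 and 10.28, and Slc12a2 5.47 and 8.39.

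The members did not go one way on these arrays. The inhibitor gene Lrig1 and the receptor gene Erbb2 were higher on the circPan3-/- array, with log2 differences of 1.69 and 1.43 as deposited. The ligand genes Btc and Ereg were lower, at -1.40 and -1.06. The dimmer value of each of these 4 lay under its control limit, so their folds are given below as bounds, from that limit to the brighter value. The bounds use the values as deposited, so the median difference of 0.36 is not taken out of them. By such bounds 1 member, Lrig1, was at least 2-fold higher and 0 were lower. The other 5 members were less than 2-fold apart. With 2 of the 9 higher against a background of 9.73%, and 2 of the 9 lower against 2.82%, both shares lay above those of all named genes, but each rests on 2 genes and on values under a limit. The median of the 9 was 0.35, next to 0.36 over all named genes.

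The upstream sequences of the members at least 2-fold apart are given first, since these are the genes that the comparison turns on. Of the 10 members, 8 had at least 1 entry in the RefSeq promoter table (GRCm38.p6), and Ereg and Erbb3 had none, so Ereg is named only. The 250 bases before the listed start are printed for Lrig1 (chr6:94700146-94700395, minus strand), Erbb2 (chr11:98412234-98412483, plus strand) and Btc (chr5:91402995-91403244, minus strand). Errfi1 is added because 1 of its 2 listed starts (chr4:150854820-150855069, plus strand) carried several of the motifs searched; the other start held a TCF/LEF core only. The Areg window, for which there is no array value here, held a GC box, a TATA box and a cyclic AMP response element as well. Capitals mark a match, searched on both strands, to any of 5 motifs. The GC box, which SP1 and related factors bind, was searched as GGGCGG, and the TATA box of the core promoter as TATAAA. The site of AP-1, the dimer that FOS forms with JUN proteins, was searched as TGANTCA. The core that the Wnt pathway's TCF/LEF factors bind was searched as CTTTGA, and the cyclic AMP response element as TGACGTCA.
Lrig1: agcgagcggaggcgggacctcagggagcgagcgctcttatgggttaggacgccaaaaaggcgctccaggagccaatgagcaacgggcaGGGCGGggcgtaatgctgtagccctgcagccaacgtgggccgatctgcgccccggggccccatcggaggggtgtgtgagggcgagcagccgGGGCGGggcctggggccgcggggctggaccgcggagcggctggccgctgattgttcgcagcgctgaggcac
Erbb2: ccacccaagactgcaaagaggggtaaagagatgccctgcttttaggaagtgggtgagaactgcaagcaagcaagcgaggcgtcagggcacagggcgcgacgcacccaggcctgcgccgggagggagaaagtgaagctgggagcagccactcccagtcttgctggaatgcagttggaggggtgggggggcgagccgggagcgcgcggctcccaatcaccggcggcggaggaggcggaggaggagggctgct
Btc: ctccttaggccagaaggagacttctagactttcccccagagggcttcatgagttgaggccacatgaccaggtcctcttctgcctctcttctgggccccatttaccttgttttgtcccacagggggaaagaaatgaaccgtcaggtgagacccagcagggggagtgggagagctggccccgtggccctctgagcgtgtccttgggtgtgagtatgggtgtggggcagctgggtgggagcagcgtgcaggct
Errfi1: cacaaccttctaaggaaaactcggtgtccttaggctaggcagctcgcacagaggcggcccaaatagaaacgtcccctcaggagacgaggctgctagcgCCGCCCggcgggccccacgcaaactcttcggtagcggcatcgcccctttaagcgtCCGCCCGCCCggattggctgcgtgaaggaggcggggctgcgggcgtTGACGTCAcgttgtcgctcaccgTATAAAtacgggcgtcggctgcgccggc
Lrig1, the gene furthest above its circPan3+/+ level among the members, had 2 GC boxes and a GC content of 71.6%, against a median of 52.4% over all 32851 promoter entries. A GC box stood in 32.7% of those entries. Tgfa and Egfr, which were less than 2-fold apart, held 2 and 1 GC boxes, with 69.2% and 60.8% GC. Erbb2, with 66.0% GC, and Btc, with 59.6%, held none of the 5 motifs in this window. The printed Errfi1 window held 3 GC boxes, of which the last 2 overlap, and 1 cyclic AMP response element, a motif found in 1.55% of all entries. It also held a TATA box, found in 12.4%, that begins 28 bases before the listed start. These matches describe the letters only.

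Among the receptors, Egfr, which encodes the receptor for all 5 ligands considered here, had 4.72 in circPan3+/+ and 4.99 in circPan3-/- cells. Both values lay under the control limits, so no fold is given. The difference of 0.27 was smaller than that of the median named gene, and its sign turned to -0.08 after centring, -0.18 after loess and -0.09 after quantile normalization. Erbb2, the partner receptor without a known ligand, had 4.25 in circPan3+/+ and 5.69 in circPan3-/- cells. Only the circPan3-/- value was above its limit, which gives a fold of at least 1.54 as deposited. The difference of 1.43 exceeded that of 96.8% of named genes, and it was 1.08 after centring, 0.97 after loess and 1.10 after quantile normalization. Erbb3, which relies on its partners' kinase activity, had 6.44 and 7.18 and was above the limits on both arrays. Its difference of 0.75 was 1.68-fold, and 0.18 after loess, at which 67.7% of named genes had a lower value. All 3 receptors were thus higher as deposited, but Egfr turned sign under the 3 scalings, and Erbb2 alone of them was at least 2-fold apart, which it was not after loess.

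**Figure D1:**
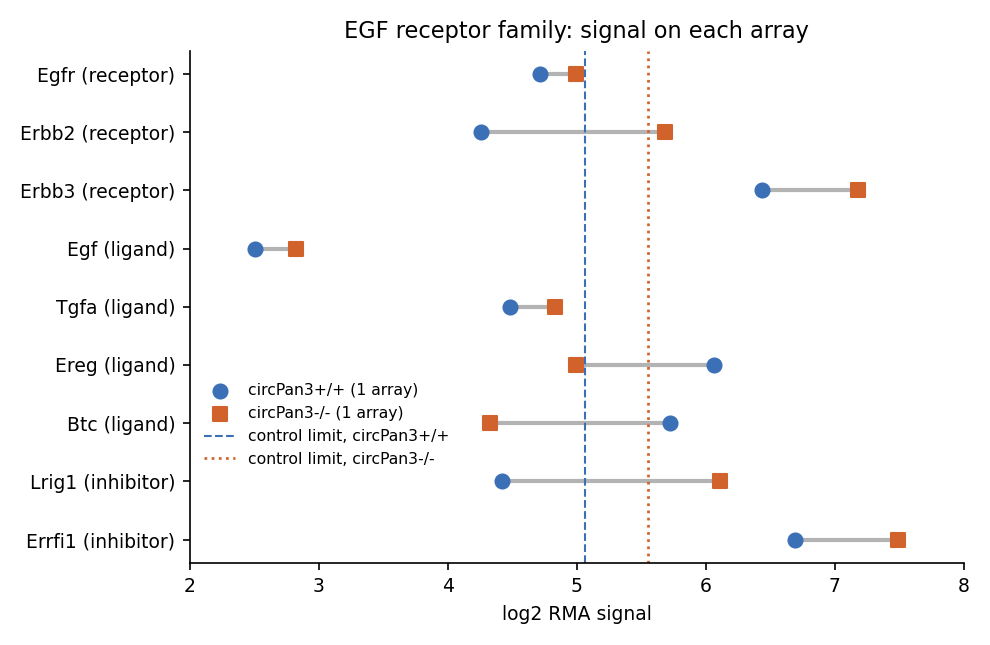
Log2 RMA signal (x axis) of the 9 members measured, with circles for the circPan3+/+ array, squares for the circPan3-/- array, and vertical lines at each array's control limit. Erbb3 and Errfi1 lie above the limits on both arrays, Egfr, Egf and Tgfa under them on both, and the circPan3-/- value is the lower one in Ereg and Btc alone.

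Of the 4 ligands measured, Btc and Ereg were lower and Egf and Tgfa differed about as the median gene did. Btc, which encodes betacellulin, had 5.72 in circPan3+/+ and 4.32 in circPan3-/- cells. The circPan3-/- value lay under its limit, so the fold is at least 1.12. The difference of -1.40 was undercut by 1.52% of named genes, and it was -1.75 after centring, -1.86 after loess and -1.73 after quantile normalization. Ereg, which encodes epiregulin, a ligand known from crypt regeneration, had 6.06 and 5.00, again with only the circPan3+/+ value above its limit and a fold of at least 1.42. The difference of -1.06 was -1.42 after centring, -1.56 after loess and -1.41 after quantile normalization. A dimmer row of Ereg had 2.68 and 2.16, a difference of -0.52 in the same direction, and the mean of both rows gave -0.79, short of 2-fold.

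Egf, the founding ligand of the family, had 2.51 in circPan3+/+ and 2.82 in circPan3-/- cells, with both values far under the control limits. Its difference of 0.32 was -0.04 after centring and 0.13 after loess. Tgfa, which encodes transforming growth factor alpha, had 4.48 and 4.83, also under both limits, and a difference of 0.35 that became -0.01 after centring. For Egf and Tgfa the arrays therefore give values within the range of the negative controls and no direction that holds under each scaling. The ligands had a median of -0.37 and ran from -1.40 to 0.35, while the receptors had a median of 0.75 and ran from 0.27 to 1.43.

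Both inhibitors were higher on the circPan3-/- array, as deposited and under the 3 scalings. Lrig1 encodes a transmembrane protein that promotes the degradation of ERBB receptors and marks crypt stem cells. It had 4.42 in circPan3+/+ and 6.11 in circPan3-/- cells. Because the circPan3+/+ value was under its limit, the fold is at least 2.07 as deposited. Its difference of 1.69 exceeded that of 98.3% of named genes and was 1.34 after centring, 1.21 after loess and 1.36 after quantile normalization. Lrig1 was the only member that stayed at least 2-fold apart when deposited values under a limit were set to it. By that rule 3.57% of named genes were higher and 0.553% lower. The rule was not applied to scaled values. Errfi1 encodes MIG6, a feedback inhibitor that binds the receptors' kinase domains. It had 6.69 and 7.49, above the limits on both arrays, and its difference of 0.80, or 1.74-fold, was 0.44 after centring and 0.23 after loess.

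**Figure D2:**
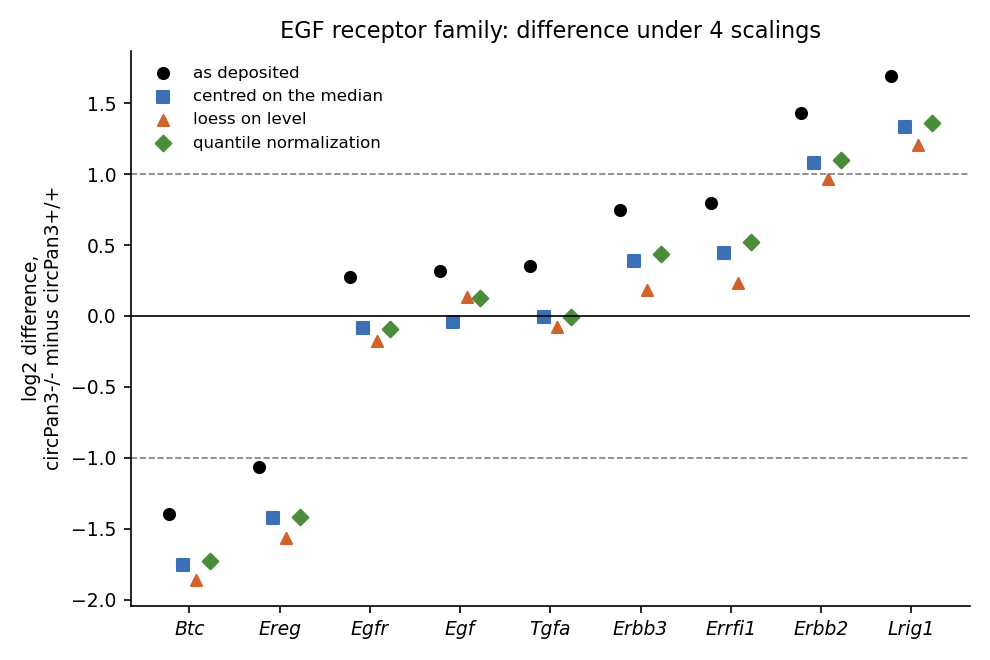
Log2 difference, circPan3-/- minus circPan3+/+ (y axis), of each member as deposited and under 3 scalings, with dashed lines at 2-fold. Btc, Ereg and Lrig1 stay past 2-fold under all 4, Erbb2 drops to 0.97 after loess, and Egfr, Egf and Tgfa lie on both sides of 0.

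The 5 members with a circPan3+/+ value under the limit, Egfr, Erbb2, Egf, Tgfa and Lrig1, shared that exact value with other rows of the column. The value of Egf stood in 1579 rows, that of Egfr in 183, of Erbb2 in 127, of Lrig1 in 117 and of Tgfa in 104. The 4 members above the limit in circPan3+/+ cells, Erbb3, Ereg, Btc and Errfi1, had values of their own there. On the circPan3-/- array 8 of the 9 members had a value of their own and Egf shared its value with 1 other row, so that the higher differences of Erbb2 and Lrig1 are measured from shared values. The part of this in their differences was not tested.

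**Figure D3:**
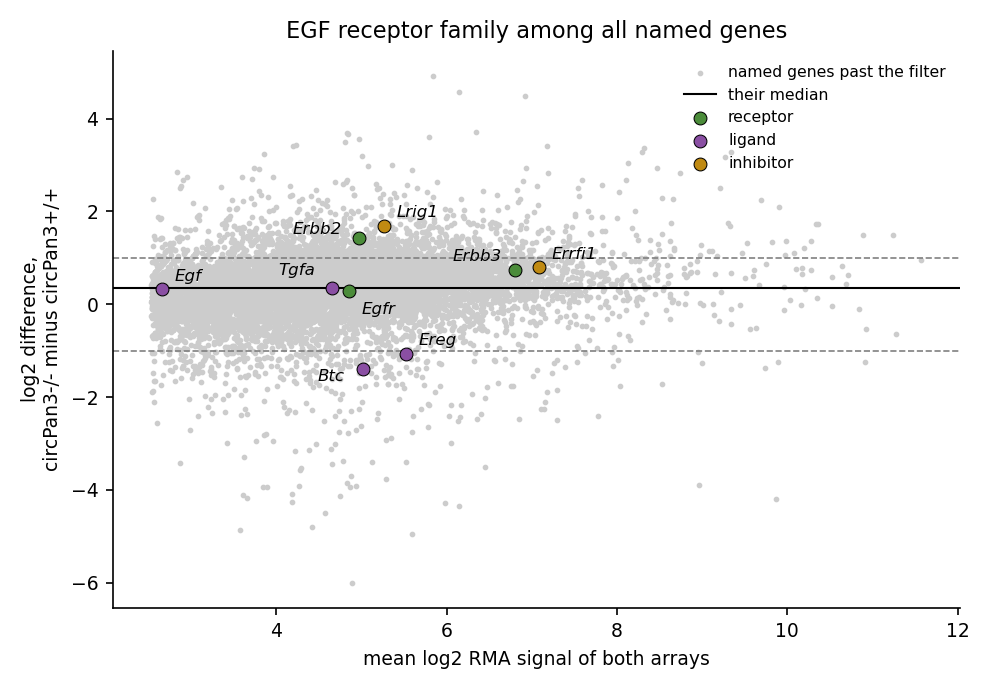
Log2 difference, circPan3-/- minus circPan3+/+ (y axis), against the mean log2 RMA signal of both arrays (x axis) for the 13737 named genes past the filter (grey) and the 9 members (coloured by role), with the median of 0.36 as a solid line and dashed lines at 2-fold. Lrig1 and Erbb2 lie above the upper dashed line, Btc and Ereg below the lower one, and the other 5 members between them.

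Markers of several cell types differed between the arrays in the same directions as these members. In bulk samples, fewer cells of a type and less RNA per cell cannot be told apart. Of all named genes past the filter, 9.73% were at least 2-fold higher and 2.82% lower as deposited. These shares were 3.89% and 5.03% after centring, 3.37% and 5.08% after loess, and 3.57% and 0.553% by bounds. Of 8 epithelial markers, 4 were higher by 2-fold or more and 0 lower on the circPan3-/- array (1 higher after centring), and their summed linear signal was 2563 in circPan3+/+ and 4544 in circPan3-/- cells; Lrig1, Erbb2 and Erbb3 went the same way. Of 5 Paneth cell markers measured, 4 were higher by that much (3 after loess) and 1 was lower, with sums of 3495 and 7536. Of goblet cell markers, 7 of 7 were at least 2-fold higher (4 after loess), with sums of 1043 and 4460. Egf, which Paneth cells are known to supply, was below each array's limit. Of 10 myeloid markers, 8 were at least 2-fold lower (3 by bounds) and 0 higher, with sums of 2207 and 1641. Most of both sums came from Lyz2, the brightest of the 10, which had 10.55 and 10.51. The macrophage gene Cd68 had 6.97 and 4.21. Of 6 endothelial markers 2 were lower (4 after centring, 1 by bounds) and 0 higher, with sums of 476.0 and 225.9. Of 7 mesenchymal markers measured 3 were lower (2 by bounds) and 0 higher, with sums of 806 and 289. Of 9 enterocyte markers, 4 were lower by 2-fold or more (7 with loess) and 0 higher, with sums of 4241 and 2656. Ereg and Btc went in the direction of these last 4 lists, of which the enterocyte list is epithelial. The 10 stem cell markers, with 5 higher and 2 lower (Lgr5 and Olfm4), had sums of 5025 and 1958. By bounds 1 was higher and 2 were lower. Lgr5 and Olfm4 were the brightest of the 10 in circPan3+/+ cells, at 10.91 and 11.53, and dominate the sum of 5025. No marker measured in the 8 lists was at 0, but this is no call of detection. Under the limits on both arrays were 5 of 10 stem cell, 4 of 7 mesenchymal, 1 of 9 enterocyte and 1 of 6 endothelial markers. The part of cell composition in the differences of Ereg, Btc, Lrig1 or Erbb2 was not tested.

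Ereg and Btc are also neighbours. In the RefSeq table they stand on chromosome 5 in the order Epgn, Ereg, Areg, Btc, next to a cluster of CXC chemokine genes. This stretch, from Cxcl5 to Parm1, was chosen after its values were seen, so its counts are no support for the differences of Ereg and Btc. Of its 7 chemokine genes, 6 were at least 2-fold lower on the circPan3-/- array, against 2.82% of all named genes. They ran from Pf4, the platelet factor 4 gene, at -4.27 to Cxcl1 at -1.54. Cxcl15 differed by -0.14 between values under the limits. The 6 had their circPan3-/- values under the control limit, as Ereg and Btc did. By bounds 3 of the 6, Pf4, Cxcl3 and Cxcl2, were at least 2-fold lower, against 0.553% of all named genes. Mthfd2l, a mitochondrial folate enzyme gene, had a difference of 1.47 and Parm1 one of 1.07, each between values under the limits on both arrays. Epgn, the epigen ligand gene, differed by 0.19, which was -0.16 after centring and 0.01 after loess, also under both limits.

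**Figure D4:**
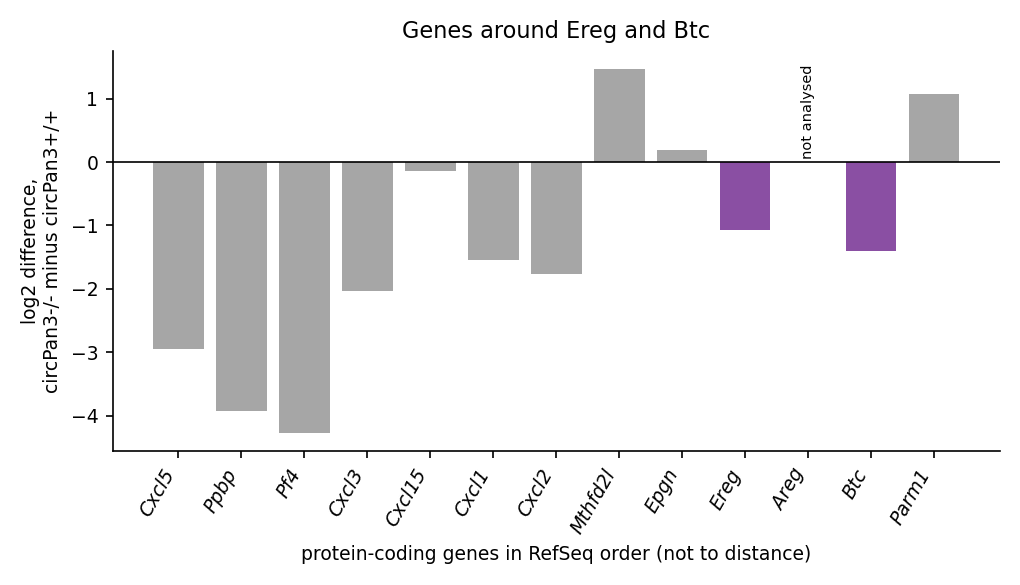
Log2 difference, circPan3-/- minus circPan3+/+ (bars, y axis), of protein-coding genes in their RefSeq order on chromosome 5 (x axis, not to distance), with Ereg and Btc in purple. The 6 lower chemokine genes run from -4.27 to -1.54, Ereg stands at -1.06 and Btc at -1.40, while Mthfd2l and Parm1 lie above 0.

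The rest of the pathway was read through a list of 59 genes, of which 52 were measured and 48 had a mean level past the filter. Of the 48, 6 were at least 2-fold higher against 9.73% of all named genes, and 0 were lower against 2.82%. The share of higher genes was close to the background as deposited but above it otherwise: 5 of 48 were higher after centring, against 3.89%, 4 after loess, against 3.37%, and 4 by bounds, against 3.57%. Each of these shares rests on few genes, and the background was not matched for level. Of the 52 measured, 22 were above the limits on both arrays, against 2565 of 18232 named genes. Their median of 0.40 was close to the 0.36 of all named genes. The 6 stood in the groups of other ligands, of adaptors and receptor turnover, and of feedback and targets.

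Among the other ligands, Hbegf, which encodes heparin-binding EGF-like growth factor, stood furthest above. It had 5.60 in circPan3+/+ and 8.07 in circPan3-/- cells, above the limits on both arrays. Its difference of 2.47, or 5.54-fold, was 2.11 after centring and 1.91 after loess, so this ligand went the opposite way to Ereg and Btc. Nrg1, the neuregulin 1 gene, whose product binds ERBB3, had 3.24 and 2.27, which differ by -0.98 and lie under the limits. Nrg1 was past 2-fold after centring, at -1.33, but the mean of its 2 rows gave -0.48 as deposited. Its circPan3+/+ value stood in 759 rows. The receptor gene Erbb4 had 1.94 and 2.12, under the limits on both arrays and under the filter.

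Of the 5 genes of ligand release, 0 were at least 2-fold apart. The metalloproteinase gene Adam10, which sheds EGF and betacellulin, had a difference of 0.80 (6.59 and 7.39). Adam17, which sheds most other ligands of the family, had one of -0.34 (5.03 and 4.69), between values under the limits. Among 11 genes of adaptors and receptor turnover, 2 were at least 2-fold higher and 0 lower. Lrig3, a relative of Lrig1, differed by 2.04 (3.24 and 5.28), between values under the limits on both arrays, and the RAS exchange factor gene Sos1 by 1.02 (4.68 and 5.70), at least 1.56-fold, which was 0.67 after centring. The ubiquitin ligase gene Cblb was lowest at -0.19.

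Genes of the signalling cascades within the cell stood near the shift of all named genes. The 6 RAS and MAP kinase genes measured ran from 0.21 for the kinase gene Map2k1 to 0.65 for Braf, with a median of 0.38. The 6 PI3 kinase and AKT genes measured ran from -0.02 for Akt2 to 0.55 for Pdpk1, with a median of 0.17. Feedback regulators and transcriptional targets had a median of 0.57 over 17 genes, with 3 at least 2-fold higher and 0 lower. The 3 were the immediate early genes Fos, with 6.38 and 8.71, Egr1, with 5.73 and 7.94, and the MAP kinase phosphatase gene Dusp1, with 6.94 and 8.46. Fos stood at 2.33, Egr1 at 2.21 and Dusp1 at 1.52, all above the limits on both arrays, though Dusp1 came to 0.95 after loess. Other genes that MAP kinase activity is known to induce were less than 2-fold apart. The phosphatase gene Dusp6 had a difference of -0.12, the Sprouty genes Spry2 0.95 and Spry4 -0.52, and the ETS factor genes Etv4 0.23 and Etv5 0.26. Of these 5, Dusp6 alone was above a limit, so the other values say little. Also above the limits on both arrays were Dusp4 at 0.83, Phlda1 at 0.58, Myc at 0.57, Dusp5 at 0.25 and Ier3 at 0.21. Immediate early genes also respond to tissue dissociation, and the part of that in Hbegf, Fos, Egr1 and Dusp1 was not tested.

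**Figure D5:**
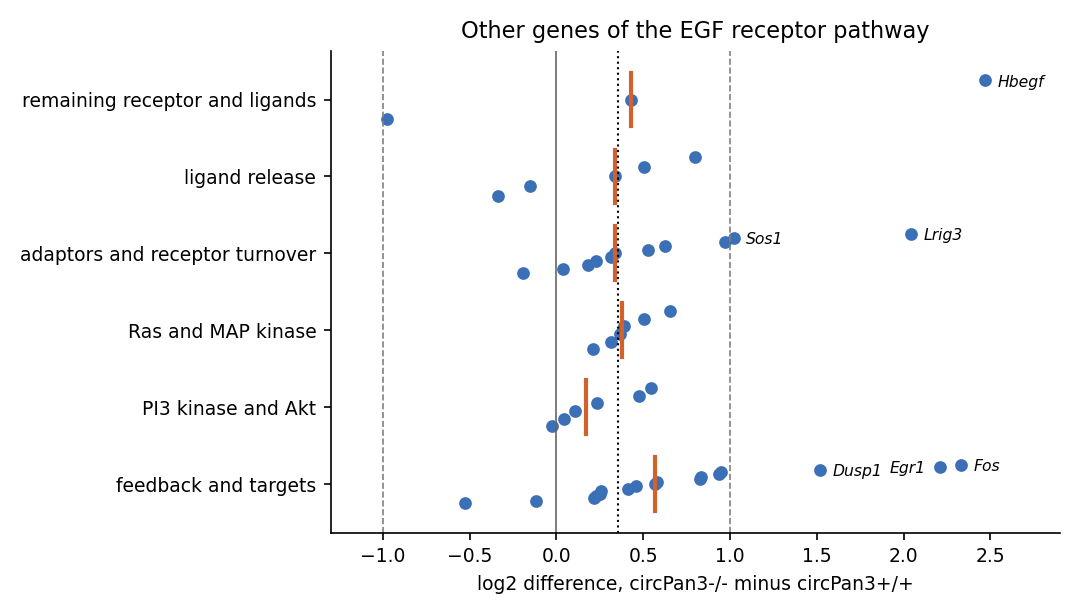
Log2 difference, circPan3-/- minus circPan3+/+ (x axis), of the 48 other pathway genes past the filter, 1 point per gene, by group (rows), with orange bars at group medians, a dotted line at the median of all named genes (0.36) and dashed lines at 2-fold. The 6 genes past 2-fold are named; Hbegf, at 2.47, is furthest to the right and Nrg1, at -0.98, furthest to the left.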

How the data were processed

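Total RNA of 2 samples, 1 per genotype, was hybridised to 1 Affymetrix Clariom D mouse array each. The authors made 1 log2 value per transcript cluster with RMA in Affymetrix Power Tools, per the submitters' processing notes, which name no version or build; whether both arrays were run together is not stated. The deposited values were taken as log2, from their range of -0.18 to 13.07 and from what RMA gives, since the table states no unit. Of 72688 rows, 31085 carried 1 gene symbol and 1665 several genes, which were not named; 33206 transcript clusters had no symbol. Symbols came from the platform annotation and were updated through Entrez identifiers to the RefSeq table (GRCm38.p6), which left 18232 protein-coding genes other than predicted models. The brightest row stood for each gene. Genes with a mean over both arrays of at least 2.53, the median of all rows, were kept for counts and medians (13737).

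With 1 array per genotype no test was possible, and a rule of size, at least 2-fold, was used. The number of arrays limits the precision. No detection calls were used here; a control limit, the 95th percentile of 5222 negative control rows, was taken per array. A deposited value under it was replaced by the limit to give a bound, and no fold was given where the brighter value was under its own limit. Alternatives were centring, loess on level (span 0.3), quantile normalization, the mean of rows, a threshold of 1.5-fold, control limits, means, and other filters. The loess step was repeated on simulated differences with known answers, and the other steps were not tested in this way. Python 3.11.15, pandas 2.3.3 and statsmodels 0.14.6 were used. The genes named from the wider pathway were those at least 2-fold apart and above the control limit on at least 1 array, and the highest and lowest of each group. Erbb4, Dusp4, Dusp5, Dusp6, Spry2, Etv4, Etv5, Myc, Phlda1, Ier3, the markers and the chromosome 5 neighbours were named after their values were seen. The members and lists were chosen with earlier results of these data known.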

Additional observations from a re-analysis of the deposited data

How the results depend on the processing

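No paired analysis was possible because each genotype had 1 array, and for the same reason no array could be left out. Of the 9 members measured, 2 were called higher as deposited; the count was 1 after loess on level, 4 at a threshold of 1.5-fold and 1 with control limits. The 2 lower members were 1 with a symbol's rows averaged and 0 with control limits. Erbb2 came to 0.97 after loess and Ereg to -0.79 with the mean of its rows; the other 34 single-gene values under centring, loess, quantile normalization or row means neither crossed 2-fold from a called difference nor moved by 1.5-fold or more. Of the pathway list, 6 were higher as deposited and 14 at 1.5-fold, and 0 lower as deposited against 1 after centring, after loess, after quantile normalization and at 1.5-fold. The other counts stayed within 1.5 times. No share of all named genes was counted at 1.5-fold. Phlda1, just under that threshold at 0.58, was above only 69.2% of named genes. The counts of higher members and pathway genes at 1.5-fold are therefore not read as a result about them. Medians moved by less than 1.5-fold, but they follow the shift of all genes: that of the members was 0.35 as deposited, -0.01 after centring, 0.13 after loess and after quantile normalization, and 0.55 with a filter at the upper quartile. That of the pathway list was 0.40 as deposited, 0.04 after centring, -0.05 after loess, 0.04 after quantile normalization and 0.52 as a mean. With control limits, a difference measured from a dim value is shortened by construction, to 5.06 for a dim circPan3+/+ value and to 5.56 for a dim circPan3-/- value. Signals of Egfr, Egf and Tgfa lay within the range of the negative controls on both arrays, which limits what their values can show.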
